A study of Homo sapiens with 9 samples.

Results

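The genes described are IL18, IL32, IL18BP and CASP1, a cytokine, a second cytokine, a secreted inhibitor and a protease. They were taken by gene name from the deposited table, which makes them 4 of its 27421 genes, and their values were read in all 9 libraries. IL18, IL32 and IL18BP had at least 1 FPKM in every library, and so 3 of the 4 passed the filter of at least 1 FPKM in at least 3 libraries, as did 11245 genes in all. CASP1 did not pass and is described by its values. The genes were chosen with their levels in the knockdown arms and the control already known. Those differences are therefore given as a description with an estimate and its standard error, and no test is attached to them.

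The libraries come from Huh7, a long-established cell line grown out of a liver cancer (hepatocellular carcinoma), and 9 poly(A)-selected libraries were made in 3 groups of 3. The groups are shzmat2-1 and shzmat2-2, in which ZMAT2 was knocked down, and control, for which the labels give no further description of what the cells received. ZMAT2 encodes a component of the spliceosome with zinc fingers. The series asked whether it acts on liver cancer through splicing. All 3 groups are of 1 cell line, both arms are set against the same 3 control libraries, and no label says that replicates were separate cultures. The p-values therefore reflect no more than the spread among these samples, which may be technical.

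IL-18 is a cytokine of the IL-1 family that is made as an inactive precursor and stored in many epithelial cells. Caspase-1, switched on by inflammasomes, cuts the precursor into its active form, which signals through IL18R1, IL18RAP and the adaptor MYD88 and drives lymphocytes to make interferon-gamma. IL-18 binding protein captures the mature cytokine outside the cell, and its gene responds to interferon-gamma, which closes a feedback loop. IL-32 is unrelated in sequence to other cytokines, has no known mouse counterpart, occurs in several splice forms and is induced by TNF, IL-1 and interferon-gamma in human epithelial and liver cells.

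The values are FPKM, in which the fragments of a gene are divided by its transcript length and the depth of the library, so levels can be compared between genes, and they hold no information on splice forms. Depth recovered from the values was 18430000 to 23740000 fragments per library. ZMAT2 averaged 13.7 ± 1.30 FPKM in shzmat2-1, 21.1 ± 0.922 FPKM in shzmat2-2 and 36.5 ± 3.32 FPKM in control (SD, n = 3 each), or 0.376 and 0.577 times the control mean. The libraries stood apart in how many of their fragments came from the 13 protein genes of the mitochondrial genome. That share was 7.70% to 16.4% in shzmat2-1 and 14.5% to 27.0% in shzmat2-2, whereas control had 43.2% in replicate 2 and 7.86% and 8.28% in the other two. Results that this share touches are also given per nuclear fragment, meaning FPKM rescaled to the fragments outside those genes, and without control replicate 2.

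IL18 (ENSG00000150782, chromosome 11, 112143253 to 112164096 in the coordinates of the deposited table, minus strand) was higher in every library of both arms than in any control library. It had 16.3, 14.4 and 14.9 FPKM in shzmat2-1 replicates 1, 2 and 3. The shzmat2-2 replicates had 14.1, 14.0 and 15.2 FPKM. The control replicates had 5.34, 3.79 and 5.63 FPKM. The 6 arm libraries lay within a narrow band and none overlapped the control, whose replicate 2 was the lowest of the 9. Among the 11245 genes tested, 4.69% showed the same lack of overlap in the same direction, but IL18 was picked for this contrast and nothing is read from it. A gene known by its ID, ENSG00000255292, overlaps IL18 on the opposite strand.

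The IL18 means were 15.2 ± 0.971 FPKM in shzmat2-1, 14.4 ± 0.645 FPKM in shzmat2-2 and 4.92 ± 0.987 FPKM in control (SD, n = 3 each), which is 3.09 and 2.93 times the control mean. On the log2(FPKM + 1) scale the limma estimates were 1.46 (SE 0.18) for shzmat2-1 and 1.39 (SE 0.18) for shzmat2-2. These levels rest on 782 to 861 fragments per library in shzmat2-1, 851 to 869 in shzmat2-2 and 226 to 284 in control. Ranked by FPKM among the protein-coding genes of its own library, IL18 stood at the 83.1 to 84.6 percentile in shzmat2-1, the 83.9 to 86.4 percentile in shzmat2-2 and the 64.5 to 68.9 percentile in control. In bulk RNA, fewer cells that make a transcript and less of it per cell cannot be told apart, for IL18 and for every gene below.

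**Figure D1:**
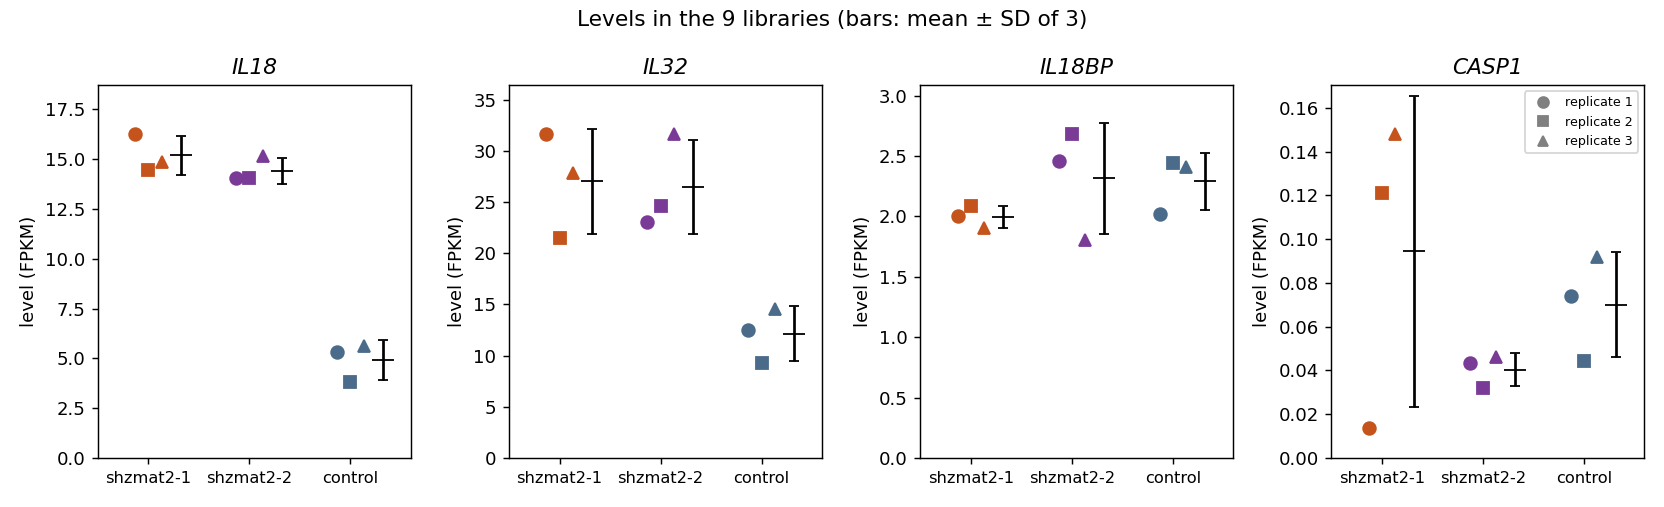
Levels of IL18, IL32, IL18BP and CASP1 in FPKM on linear axes that start at 0, one panel per gene, with each library as a symbol for its replicate number and the mean ± SD of 3 libraries beside each group. IL18 and IL32 lie higher in all 6 arm libraries than in the 3 control libraries, IL18BP overlaps between all groups, and no CASP1 value exceeds 0.148 FPKM.

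IL32 (ENSG00000008517, chromosome 16, 3065297 to 3082192, plus strand) was the most abundant of the 4 genes in each group. It had 31.7, 21.5 and 27.9 FPKM in the shzmat2-1 replicates. Replicates 1, 2 and 3 of shzmat2-2 had 23.1, 24.6 and 31.7 FPKM. The control had 12.5, 9.28 and 14.6 FPKM. The arms again did not overlap the control, although the spread within each arm was wider than for IL18. The lowest arm library, shzmat2-1 replicate 2, was 21.5 FPKM beside a highest control of 14.6 FPKM. As for IL18, 4.69% of all tested genes showed this lack of overlap. IL32 too was picked for this contrast, so nothing is read from it.

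The IL32 means were 27.0 ± 5.14 FPKM in shzmat2-1, 26.5 ± 4.59 FPKM in shzmat2-2 and 12.1 ± 2.68 FPKM in control (SD, n = 3 each), which is 2.23 and 2.18 times the control mean. The log2 estimates were 1.10 (SE 0.23) and 1.07 (SE 0.23) for shzmat2-1 and shzmat2-2. The transcript was counted at 1580 to 1874 fragments in shzmat2-1, 1721 to 2238 in shzmat2-2 and 681 to 901 in control. A lncRNA known by its ID, ENSG00000262370, overlaps IL32 on the opposite strand. The libraries keep strand, per the labels. Settings of the counting step, its use of strand among them, are not given in the sources used here, so reads of overlapping genes cannot be told apart.

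RefSeq lists 2 promoter windows for IL32 and 4 for IL18BP, each running from 250 bases before a transcript start to 50 after it. No window of IL18 or CASP1 was used. The windows were searched on both strands for an NF-kB p65 motif that begins with GGG, ends with TTTCC and has any 2 bases between, an interferon-stimulated response element (ISRE) made of a pair of TTTC with any 2 bases between, a gamma-activated site (GAS) written TTCNNNGAA and an AP-1 motif written TGANTCA. The 2 windows below are the ones with a match, shown because NF-kB and interferon signalling are the inputs best known for these genes. Capitals mark the matches, and both windows are from RefSeq on GRCh38.p14, plus strand, chr16:3065153-3065452 for IL32 and chr11:71999367-71999666 for IL18BP.
IL32: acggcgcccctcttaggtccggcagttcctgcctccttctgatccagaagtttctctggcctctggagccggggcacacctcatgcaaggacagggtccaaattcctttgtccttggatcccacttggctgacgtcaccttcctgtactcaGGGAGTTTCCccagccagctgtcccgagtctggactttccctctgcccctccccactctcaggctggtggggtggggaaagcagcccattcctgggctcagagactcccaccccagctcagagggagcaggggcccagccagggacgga
IL18BP: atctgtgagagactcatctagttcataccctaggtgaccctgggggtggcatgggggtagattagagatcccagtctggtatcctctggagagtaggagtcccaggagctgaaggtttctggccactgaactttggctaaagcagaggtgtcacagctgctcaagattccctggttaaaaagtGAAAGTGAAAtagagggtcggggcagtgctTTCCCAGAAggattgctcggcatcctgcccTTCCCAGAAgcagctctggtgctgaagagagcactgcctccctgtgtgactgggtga

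The IL32 window holds 1 match, GGGAGTTTCC, to the NF-kB p65 letters, beginning at -99 from the transcript start. Of the 35116 RefSeq promoter windows of the same length, 1.91% hold that motif. The second IL32 window, which starts further along the gene, holds none of the 4 motifs. The IL18BP window holds an ISRE match, GAAAGTGAAA read on the plus strand, at -67, and the GAS match TTCCCAGAA at both -37 and -7. ISRE letters occur in 3.57% of all windows and GAS letters in 7.66%, and the matches do not overlap each other. AP-1 letters, which occur in 7.71% of all windows, were not found in any of the 6 windows, and the other 3 IL18BP windows hold none of the motifs. These matches describe the letters only.

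IL18BP (ENSG00000137496, chromosome 11, 71998613 to 72007315, plus strand), the gene of the secreted IL-18 inhibitor, was low and overlapped between all 3 groups. It had 2.00, 2.08 and 1.90 FPKM in shzmat2-1. The shzmat2-2 libraries had 2.46, 2.69 and 1.80 FPKM, so this arm held both the highest and the lowest of the 9 values. The control libraries had 2.02, 2.44 and 2.41 FPKM. Means were 2.00 ± 0.0915 FPKM in shzmat2-1, 2.31 ± 0.458 FPKM in shzmat2-2 and 2.29 ± 0.235 FPKM in control (SD, n = 3 each).

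For IL18BP the log2 estimates were -0.13 (SE 0.15) for shzmat2-1 and 0.00 (SE 0.15) for shzmat2-2 against the control on the deposited scale, each within its standard error of 0. Per nuclear fragment they were -0.28 (SE 0.20) and -0.03 (SE 0.20), and on that scale without control replicate 2 they were -0.07 (SE 0.16) and 0.18 (SE 0.16). It was counted at 216 to 279 fragments in shzmat2-1, 232 to 373 in shzmat2-2 and 241 to 327 in control. NUMA1, which encodes a spindle pole protein, overlaps IL18BP on the opposite strand. NUMA1 itself had a log2 estimate of 0.14 (SE 0.15) for the arms together against the control, with a limma adjusted p of 0.999.

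CASP1 (ENSG00000137752, chromosome 11, 105025397 to 105035250, minus strand), the gene of the protease that matures IL-18, was close to absent. Its values were 0.0137, 0.121 and 0.148 FPKM in shzmat2-1, 0.0434, 0.0319 and 0.0459 FPKM in shzmat2-2, and 0.0742, 0.0441 and 0.0918 FPKM in control. They rest on 1, 11 and 12 fragments in shzmat2-1, 4, 3 and 4 in shzmat2-2, and 6, 4 and 7 in control, or 24, 11 and 17 fragments per group. The groups overlap and a difference was not detectable at this depth. CARD16 is a near copy of the start of CASP1 and lies beside it, so the division of reads between them is uncertain.

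Setting the genes against each other within a library removes the scaling of that library. The ratio of IL18 to IL18BP was 8.13, 6.93 and 7.82 in shzmat2-1, 5.72, 5.23 and 8.41 in shzmat2-2, and 2.65, 1.55 and 2.34 in control. Its means were 7.63 ± 0.622 in shzmat2-1, 6.45 ± 1.71 in shzmat2-2 and 2.18 ± 0.564 in control (SD, n = 3 each). There was thus more cytokine message per message of its inhibitor in every arm library than in any control library. The ratio of IL32 to IL18 ran the other way, at 1.95, 1.49 and 1.88 in shzmat2-1, 1.64, 1.76 and 2.09 in shzmat2-2, and 2.34, 2.45 and 2.59 in control. IL32 exceeded IL18 in all 9 libraries, by a smaller factor in the 6 arm libraries than in the 3 control libraries. Both ratios follow from the contrast that chose the genes and are given as descriptions.

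**Figure D2:**
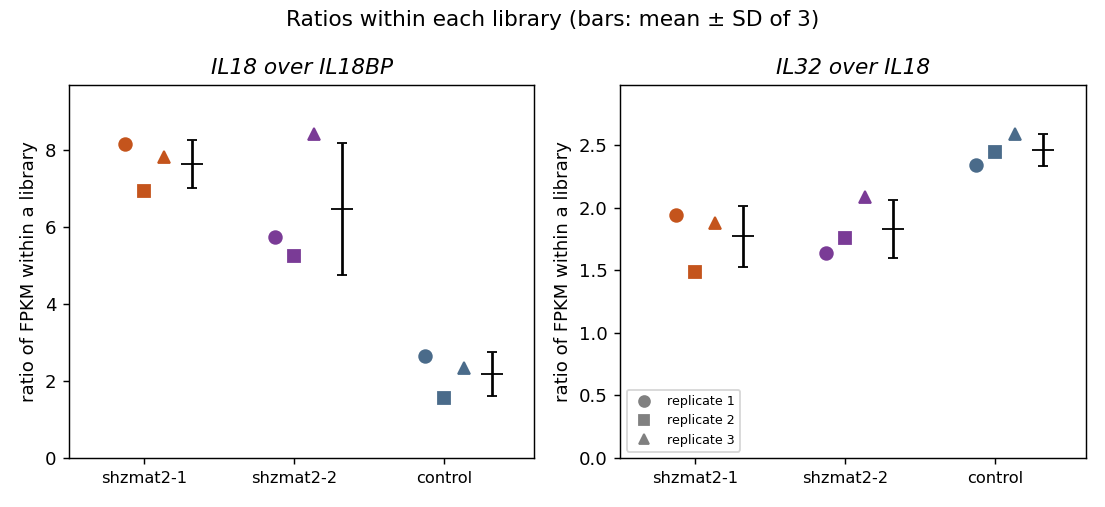
Ratio of FPKM within each library, IL18 over IL18BP on the left and IL32 over IL18 on the right, on linear axes from 0, with symbols for replicate number and the mean ± SD of 3 libraries per group. The first ratio lies between 5.23 and 8.41 in the arm libraries and at most 2.65 in the control, and the second is at most 2.09 in the arm libraries and at least 2.34 in the control.

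The order of the levels was IL32, IL18, IL18BP and CASP1 in each of the 9 libraries. Across groups, the arm means of IL18 differed from each other by less than 1 SD of shzmat2-1 but by more than 1 SD of shzmat2-2. Those of IL32 differed by less than the SD of either arm. For IL18 and IL32 the step between the lower arm and the control exceeded the SD of both groups. For IL18BP the order was shzmat2-2, control and shzmat2-1. Its means in shzmat2-2 and control differed by less than the SD of either, whereas shzmat2-1 lay below control by more than the SD of either group, although their libraries overlapped.

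The difference between the arms was not used to choose the genes and was tested with limma over all 11245 genes, with Benjamini-Hochberg adjustment. IL18 was -0.07 on the log2 scale in shzmat2-2 relative to shzmat2-1, with a 95% interval of -0.47 to 0.33 and an adjusted p of 0.876. IL32 was -0.02, with an interval of -0.54 to 0.49 and an adjusted p of 0.972. IL18BP was 0.14, with an interval of -0.20 to 0.47 and an adjusted p of 0.706. None of the 11245 genes was called between the arms, which is 0% of them, and 465 had an unadjusted p under 0.05, which is 4.14%. The intervals for IL18 and IL32 allow differences of up to about 0.5 on the log2 scale in either direction, so the arms are not shown to be alike.

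The genes were chosen with their arm and control levels known, and a small spread within groups makes such a difference clearer. Their spread is therefore given as a description. The pooled within-group SD of log2(FPKM + 1) was 0.158 for IL18, and 226 of 2259 tested protein-coding genes with a mean within 1.5 times that of IL18 had a smaller one. For IL32 it was 0.273, with 537 of 1526 genes of like level below it. For IL18BP it was 0.136, with 225 of 2016 below it. Per nuclear fragment the SD was 0.0909 for IL18, with 173 of 2283 genes below it, and 0.182 for IL32, with 574 of 1531 below it. IL18BP changed place, to 0.269 with 1494 of 2046 below it. IL18 thus varied less between replicates than most genes of its level on both scales, while the low spread of IL18BP was seen on the deposited scale alone.

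Within each group, the IL32 library with the lowest FPKM was the one with the highest mitochondrial share. These were shzmat2-1 replicate 2, shzmat2-2 replicate 1 and control replicate 2. Per nuclear fragment, IL18 averaged 17.0 ± 0.852 in shzmat2-1, 17.95 ± 1.43 in shzmat2-2 and 6.21 ± 0.446 in control (SD, n = 3 each). The ratios to the control mean were then 2.74 and 2.89. For IL32 the rescaled means were 30.1 ± 4.41 in shzmat2-1, 32.8 ± 4.72 in shzmat2-2 and 15.3 ± 1.48 in control, with ratios of 1.97 and 2.15. The 3 control values of IL18 drew together on this scale, to 5.80, 6.68 and 6.14 in replicates 1, 2 and 3, and those of IL32 lay at 13.6, 16.4 and 15.9. Without control replicate 2, the deposited FPKM gave ratios to the control of 2.77 in shzmat2-1 and 2.63 in shzmat2-2 for IL18, and of 1.99 and 1.95 for IL32 in these arms. With or without that library, and on either scale, no arm library of IL18 or IL32 came down to the control. IL18BP averaged 2.24 ± 0.222 per nuclear fragment in shzmat2-1, 2.89 ± 0.640 in shzmat2-2 and 3.04 ± 1.12 in control (SD, n = 3 each), with ratios to the control of 0.738 and 0.950. Control replicate 2 became the highest of the 9 on that scale, at 4.31.

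**Figure D3:**
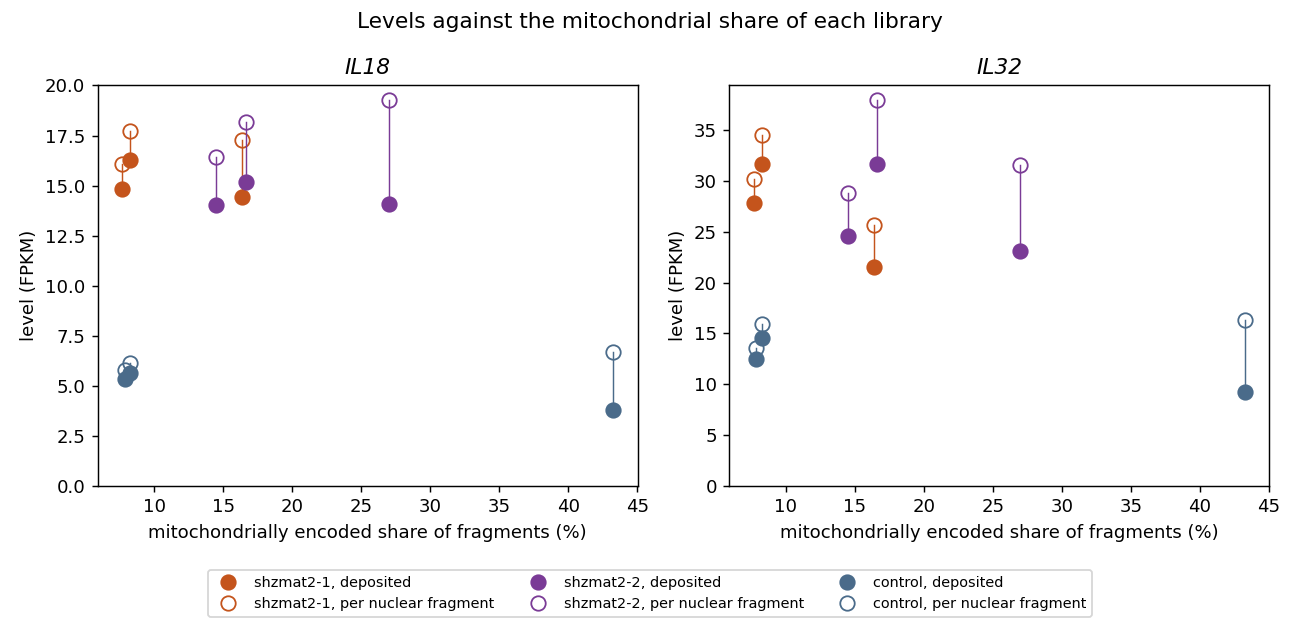
Level of IL18 (left) and IL32 (right) in each of the 9 libraries against the percentage of fragments from the 13 mitochondrially encoded genes, on linear axes. Filled points are the deposited FPKM, open points joined to them are the same values per nuclear fragment, and in both panels every arm point lies above every control point although the control library at 43.2% has the highest mitochondrial share of the 9.

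The identity of the cells was checked with marker lists. All 10 hepatocyte and hepatoma markers were measured above the filter, with summed levels of 5018 to 6108 FPKM in shzmat2-1, 4364 to 5119 FPKM in shzmat2-2 and 3436 to 6187 FPKM in control. Of 14 leukocyte markers, 11 were analysed and 8 stayed below 1 FPKM in every library. Their summed levels were 9.60 to 14.1 FPKM in shzmat2-1, 8.63 to 12.6 FPKM in shzmat2-2 and 6.48 to 11.6 FPKM in control, with CD14 and LCP1 alone passing the filter. PTPRC, the marker common to leukocytes, was at or near 0. Fibroblast and stellate markers summed to 3.04 to 4.25 FPKM in shzmat2-1, 1.79 to 2.97 FPKM in shzmat2-2 and 1.57 to 3.73 FPKM in control. Cholangiocyte and progenitor markers summed to 62.4 to 81.1 FPKM in shzmat2-1, 80.8 to 87.8 FPKM in shzmat2-2 and 65.5 to 88.8 FPKM in control. Endothelial markers summed to 1.06 to 1.17 FPKM in shzmat2-1, 0.732 to 0.783 FPKM in shzmat2-2 and 1.05 to 1.74 FPKM in control, lowest in shzmat2-2. None of these lists separated both arms from the control as a sum in the way of IL18 and IL32. Single markers did: KRT19, a keratin of bile duct cells, had 20.6, 15.7 and 18.8 FPKM in shzmat2-1, 13.4, 15.1 and 18.8 FPKM in shzmat2-2, and 13.2, 7.43 and 12.9 FPKM in control. Its log2 difference for the arms together was 0.60 (SE 0.21, limma adjusted p 0.484), and the sum of its list follows SOX9, at 73.3 FPKM in control replicate 2. LUM, a matrix proteoglycan of fibroblasts, was higher at 0.177 to 0.323 FPKM in the arm libraries and at most 0.175 FPKM in control, and ITGAM, an integrin chain of myeloid cells, was at most 0.0799 FPKM in the arm libraries and at least 0.0922 FPKM in control. Of all tested genes, 4.69% were higher in every arm library than in any control library. That share was not counted for genes below the filter or for the lower direction. The part of such cells in the results was not tested.

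Genes whose profile over the 9 libraries was most like that of IL18 or IL32 were found by the root mean square difference of log2(FPKM + 1), each gene centred on its own mean, among 10247 tested protein-coding genes. This measure describes likeness only, and all profiles share the same libraries and depth. Nearest to IL18 were MYL9 (0.147), a regulatory light chain of myosin, and ANXA3 (0.154), a calcium-dependent phospholipid-binding protein. VIM (0.186), an intermediate filament protein, GBP1 (0.195), an interferon-inducible guanylate-binding protein, and CXCL1 (0.195), a neutrophil-attracting chemokine, came next. The median over all compared genes was 0.674, and all 5 of these genes were also the nearest 5 per nuclear fragment.

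Of the IL18-like genes, CXCL1 averaged 35.2 ± 2.52 FPKM in shzmat2-1, 40.1 ± 3.03 FPKM in shzmat2-2 and 11.0 ± 2.93 FPKM in control (SD, n = 3 each). GBP1 averaged 2.62 ± 0.593 FPKM in shzmat2-1, 2.62 ± 0.0772 FPKM in shzmat2-2 and 0.344 ± 0.0517 FPKM in control. MYL9 averaged 30.4 ± 3.61 FPKM in shzmat2-1, 25.2 ± 4.30 FPKM in shzmat2-2 and 10.7 ± 2.35 FPKM in control. Like IL18, these 3 genes, and also ANXA3 and VIM, were higher in each arm library than in any control library. So were 4.69% of all tested genes. For genes picked as most like IL18 this follows from the choice, and nothing is read from it.

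Nearest to IL32 were PCSK1N (0.122), an inhibitor of a prohormone convertase, PHLDA2 (0.149), a product of an imprinted locus, and SPINT1 (0.152), a membrane-bound inhibitor of serine proteases. MYL9 (0.178) and CNN1 (0.185), a calponin that binds actin, followed, beside a median of 0.543 over all compared genes. Per nuclear fragment, 4 of these 5 were again among the nearest 5. PCSK1N averaged 21.7 ± 2.98 FPKM in shzmat2-1, 19.5 ± 4.98 FPKM in shzmat2-2 and 9.49 ± 3.22 FPKM in control (SD, n = 3 each). MYL9 was thus on both lists, IL32 was the gene ranked 9 in likeness to IL18, and IL18 was ranked 15 in likeness to IL32. Per nuclear fragment the last 2 ranks were 10 and 27. IL18 and IL32 were chosen with their arm and control levels known, so their likeness follows at least in part from the choice.

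**Figure D4:**
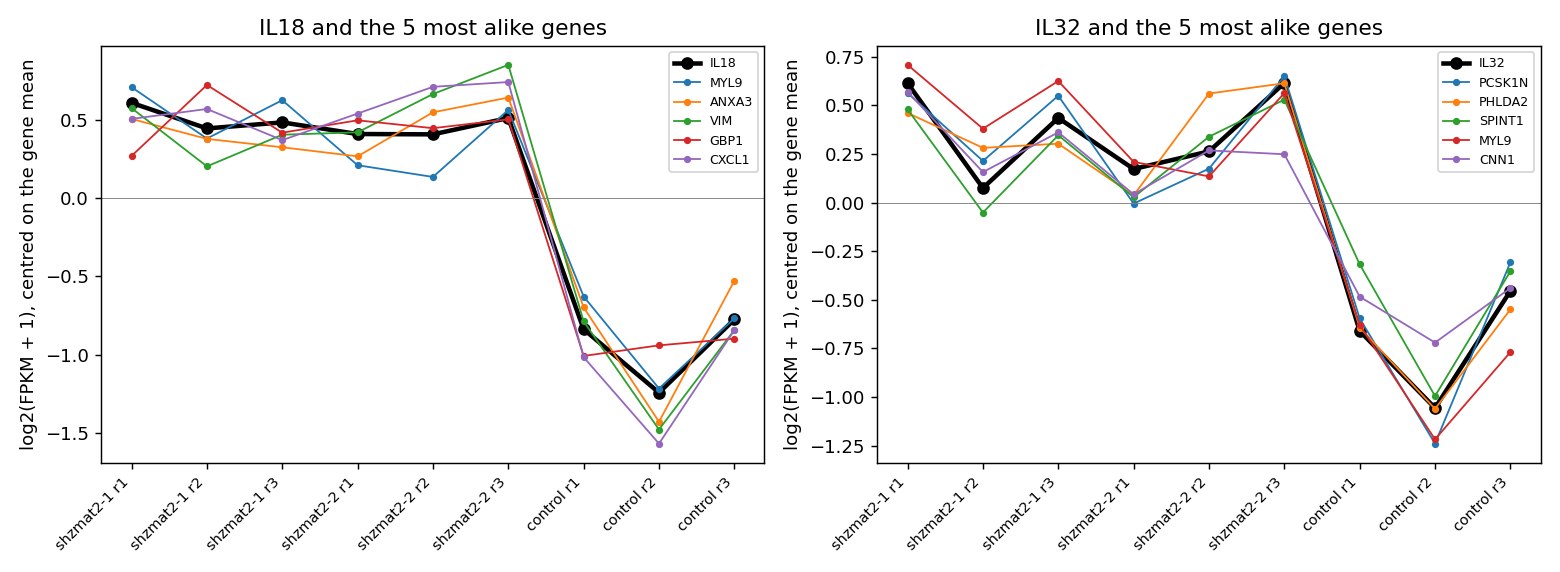
Log2(FPKM + 1) centred on each gene's mean over the 9 libraries, for IL18 (left) and IL32 (right) in black and the 5 most alike genes in colour, with libraries on the horizontal axis (r1 to r3 are replicates) and lines joining values for reading only. All profiles lie above their mean in nearly all arm libraries and below it in the control libraries.

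The surrounding pathway was followed in 8 lists of 129 genes without the 4 described here, of which 103 were analysed and 45 passed the filter. For the arms together against the control, taken as the mean of the 2 arm differences, 1 of the 45 was called at an adjusted p under 0.05 in limma, CXCL8, and it was higher, where 0.542% of all tested genes were called and 0.454% were called higher. At an unadjusted p under 0.05 there were 8 of the 45, where 6.93% of all tested genes fell below that value. The estimates of 33 list genes were positive and those of 12 negative, with a median of 0.17 on the log2 scale. Over all tested genes the median was 0.10 and 71.8% were positive.

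Apart from IL18, the IL-1 family ligands were nearly silent, and 0 of the 6 analysed passed the filter. IL1RN, the antagonist of the IL-1 receptor, was the highest of them, at 0.195 ± 0.0438 FPKM in shzmat2-1, 0.362 ± 0.167 FPKM in shzmat2-2 and 0.0841 ± 0.0598 FPKM in control (SD, n = 3 each), and shzmat2-1 overlapped the control. IL37, a family member that restrains inflammation, did not exceed 0.158 FPKM in any library, and IL1B and IL1A, the genes of IL-1 beta and IL-1 alpha, did not exceed 0.131 and 0.0243 FPKM. Of the 10 receptor genes, 3 passed the filter and none was called in limma, and none had an unadjusted p under 0.05. IL18R1, the ligand-binding chain for IL-18, ranged over 0.213 to 0.511 FPKM in shzmat2-1, 0.239 to 0.404 FPKM in shzmat2-2 and 0.107 to 0.497 FPKM in control. IL18RAP, the signalling chain of that receptor, was listed at 0 in all but 2 libraries and did not exceed 0.0351 FPKM.

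Downstream of the receptors, 15 of 17 signalling genes passed the filter, 0 were called and 1 had an unadjusted p under 0.05. That gene was MYD88, the adaptor of IL-18 and IL-1 receptors, which averaged 8.85 ± 1.31 FPKM in shzmat2-1, 12.1 ± 0.871 FPKM in shzmat2-2 and 7.66 ± 0.118 FPKM in control (SD, n = 3 each). All 6 arm libraries exceeded the 3 control libraries, with little room between them in shzmat2-1. The same held for 4.69% of all tested genes. The log2 difference in the mean of both arms was 0.39 (SE 0.14, adjusted p 0.535). TAB2 (-0.24, adjusted p 0.999) and TOLLIP (0.22, adjusted p 0.999), a scaffold and an inhibitor of the pathway, stayed within their errors of 0.30 and 0.36.

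The machinery that would activate CASP1 was measured in part. Of 13 analysed inflammasome genes, 7 passed the filter, 0 were called and 0 had an unadjusted p under 0.05. NLRP1, a sensor that can recruit caspase-1, averaged 11.6 ± 0.249 FPKM in shzmat2-1, 8.90 ± 1.37 FPKM in shzmat2-2 and 11.0 ± 2.56 FPKM in control (SD, n = 3 each), with a log2 difference of -0.08 (SE 0.18, adjusted p 0.999). CARD8, another such sensor, had -0.11 (SE 0.13, adjusted p 0.999), and DPP8, a peptidase that holds both in check, had 0.12 (SE 0.18, adjusted p 0.999). PYCARD, the adaptor that links many sensors to caspase-1, was listed at 0 in 6 of the 9 libraries and did not exceed 0.0980 FPKM. NLRC4, a sensor of bacterial proteins, was also below the filter, at 0.0454 to 0.132 FPKM in the arm libraries and 0.168 to 0.261 FPKM in control, with no overlap. It was named after its values were seen. The share of all genes that were lower in this way was not counted, so nothing is read from it. No gene of the deposited table carried the name NLRP3 or IFNG, so their levels could not be read.

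Among inflammatory caspases and pore-forming proteins, 7 of 10 genes passed the filter, 0 were called and 1, NINJ1, had an unadjusted p under 0.05. NINJ1, which ruptures the membrane late in lytic death, had 46.9, 38.8 and 40.6 FPKM in shzmat2-1, 31.3, 40.7 and 47.3 FPKM in shzmat2-2, and 33.3, 18.6 and 34.4 FPKM in control. The shzmat2-2 libraries overlapped the control. Its log2 difference was 0.53 (SE 0.23, adjusted p 0.697). CASP4, a caspase that senses lipopolysaccharide and in human cells can also mature IL-18, averaged 10.5 ± 1.13 FPKM in shzmat2-1, 11.3 ± 0.616 FPKM in shzmat2-2 and 8.65 ± 0.823 FPKM in control, with a log2 difference of 0.30 (SE 0.14, adjusted p 0.783). GSDMD, the pore-forming gasdermin, had 12.7, 3.57 and 11.9 FPKM in shzmat2-1, 2.67, 4.36 and 5.09 FPKM in shzmat2-2, and 8.14, 1.17 and 8.33 FPKM in control. In each group its lowest library was the one with the highest mitochondrial share, and the part of that share in the differences was not tested.

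Of the interferon-gamma genes that act upstream of IL18BP and CASP1, 7 of 13 passed the filter, 0 were called and 3 had an unadjusted p under 0.05. IRF1, a transcription factor of that response, had a log2 difference of 0.43 (SE 0.15, adjusted p 0.476) and levels of 1.37 ± 0.280 FPKM in shzmat2-1, 1.04 ± 0.209 FPKM in shzmat2-2 and 0.649 ± 0.318 FPKM in control (SD, n = 3 each). IFNGR2, a receptor chain, had 0.55 (SE 0.21, adjusted p 0.559). SOCS1, the feedback inhibitor of the receptor, had -0.53 (SE 0.23, adjusted p 0.701). SOCS1 averaged 1.70 ± 0.497 FPKM in shzmat2-1, 0.960 ± 0.179 FPKM in shzmat2-2 and 2.47 ± 1.25 FPKM in control, and its 3 control libraries were uneven at 3.51, 1.08 and 2.82 FPKM. Without control replicate 2 the SOCS1 difference was -0.86 (SE 0.16, adjusted p 0.0371). IRF8, an interferon-induced transcription factor best known from myeloid cells, was below the filter. It had 0.111, 0.0167 and 0.194 FPKM in shzmat2-1, 0.121, 0.0805 and 0.0927 FPKM in shzmat2-2, and 0.818, 0.379 and 0.815 FPKM in control. Every arm library of IRF8 was thus lower than any control library. It was named after its values were seen. The share of all genes that were lower in this way was not counted, so nothing is read from it.

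The list of IL-32 partners holds proposed binding partners and products of that cytokine, and 4 of its 9 genes passed the filter. CXCL8, the neutrophil-attracting chemokine that IL-32 is known to induce in myeloid cells, rose. It had 22.7, 17.2 and 21.6 FPKM in shzmat2-1, 20.4, 20.2 and 21.0 FPKM in shzmat2-2, and 6.82, 2.74 and 7.39 FPKM in control. The arms did not overlap the control, and 4.69% of all tested genes were higher in the same way. The log2 difference was 1.78 (SE 0.25, adjusted p 0.0144, higher in 6 of 6 arm libraries). The adjusted p moved to between 0.0509 and 0.0589 when any 1 of 5 libraries was left out, namely shzmat2-1 replicate 1 or 3, shzmat2-2 replicate 2 or 3, or control replicate 3, and to 0.582 with TPM, in which each library's FPKM are rescaled to a common sum. Over all alternatives it ranged between 1.70e-05 and 0.582.

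F2RL1, a protease-activated receptor reported to take part in the response to IL-32, averaged 0.948 ± 0.245 FPKM in shzmat2-1, 1.45 ± 0.159 FPKM in shzmat2-2 and 0.397 ± 0.181 FPKM in control (SD, n = 3 each). In the mean of both arms its log2 difference was 0.65 (SE 0.13, limma adjusted p 0.0650), above the threshold. Per nuclear fragment it was 0.69 (SE 0.11, limma adjusted p 0.0184) and was called, where 1.75% of all tested genes were. In 14 of 19 alternatives F2RL1 stayed uncalled, as in the main fit. On the deposited scale ITGAV, an integrin chain, had 0.63 (SE 0.27, adjusted p 0.661) and PTK2, the focal adhesion kinase, 0.18 (SE 0.20, adjusted p 0.999). PRTN3, the protease that binds IL-32, and TNF and IL6, products of IL-32 signalling in myeloid cells, did not exceed 0.130 FPKM in any library. Of the other interleukin and growth factor genes, 2 of 26 passed the filter, CLCF1 (0.17, SE 0.23, adjusted p 0.999) and CSF1 (-0.07, SE 0.13, adjusted p 0.999). IL9, a T cell cytokine that did not pass, was at 0.209 to 1.21 FPKM in the arm libraries and 0.0723 to 0.162 FPKM in control. Its highest value came from shzmat2-2 replicate 1 alone, and replicates 2 and 3 of that arm had 0.209 and 0.225 FPKM. IL9 was named after its values were seen. The share of genes below the filter that separate in this way was not counted, so nothing is read from it.

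The arms taken one at a time gave few calls among these lists. In shzmat2-1, 0 of 45 list genes were called by limma and 4 had an unadjusted p under 0.05, where 0.08% of all tested genes were called and 5.76% had such a p. CXCL8 was 1.77 (SE 0.29, adjusted p 0.0784) there. With the replicate number as a block, fitted on all 9 libraries, 1 of 45 was called in shzmat2-1, CXCL8 with an adjusted p of 0.0289, and 0.116% of all tested genes were. In shzmat2-2, 2 of 45 were called and 5 had an unadjusted p under 0.05, where 0.587% of all tested genes were called, 0.507% were called higher and 7.0% had such a p. Both were higher: CXCL8 at 1.78 (SE 0.29, adjusted p 0.0259) and F2RL1 at 0.81 (SE 0.14, adjusted p 0.0398). For F2RL1 the difference of shzmat2-2 and shzmat2-1 was 0.33 (SE 0.14, adjusted p 0.657), so the arms are not shown to differ. Without control replicate 2 the calls were 2 of 45 for the arms together (CXCL8 and SOCS1), where 1.33% of all tested genes were called. They were 1 of 45 for shzmat2-1 (CXCL8), where 0.293% of all tested genes were called. For shzmat2-2 they were 3 of 45 (CXCL8, F2RL1 and SOCS1), where 2.4% of all tested genes were called. In shzmat2-2 neither CXCL8 nor F2RL1 was called when any 1 library other than control replicate 2 or shzmat2-1 replicate 2 was left out.

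**Figure D5:**
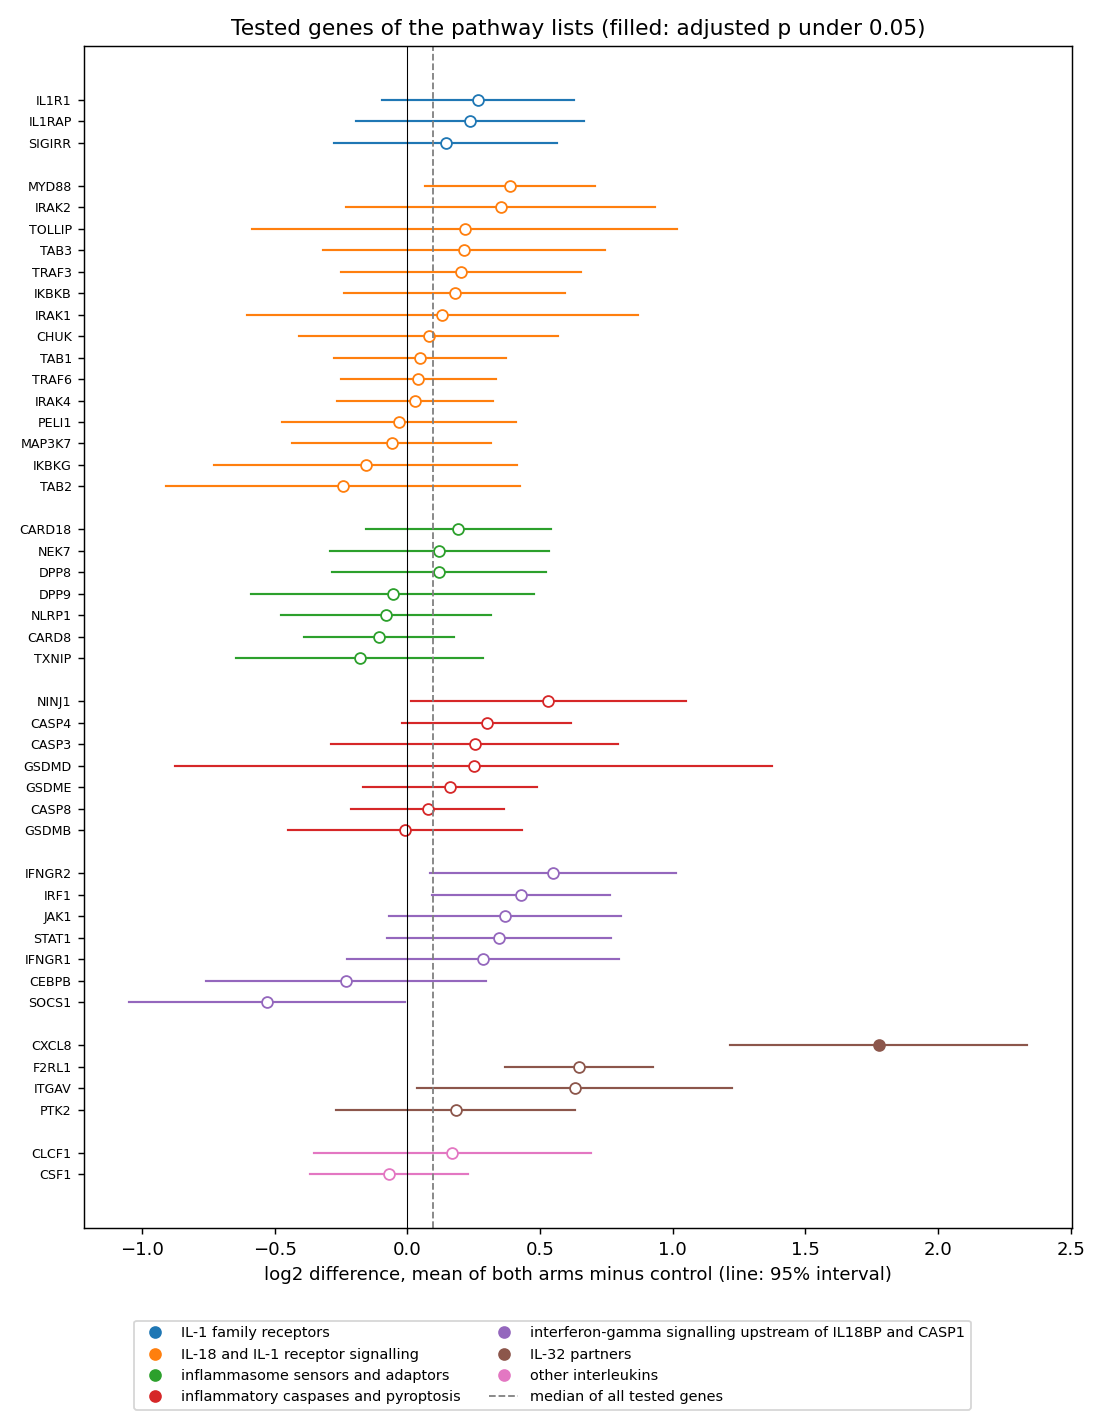
Log2 difference of the mean of both arms minus control for the 45 tested pathway genes, grouped by list, with 95% intervals from limma, a solid line at 0 and a dashed line at the median of all tested genes. The only filled point, for an adjusted p under 0.05, is CXCL8 at 1.78, and the other estimates lie between -0.53 and 0.65.

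Genes near the members were examined in a window of 50 kb. IL18 had 5 neighbours, of which only SDHD, a subunit of respiratory complex II on the opposite strand, passed the filter, with a log2 difference of -0.10 (SE 0.26, adjusted p 0.999). BCO2, which encodes an enzyme that cleaves carotenoids, was too low to be tested, at 0.329, 0.323 and 0.290 FPKM in shzmat2-1, 0.267, 0.386 and 0.276 FPKM in shzmat2-2, and 0.0580, 0.0259 and 0.200 FPKM in control. Its arm libraries, like those of IL18, all lay above the control. Among tested genes 4.69% did so, a share that leaves out genes as low as BCO2. IL32 had 12, of which 6 passed the filter and none was called by limma. An unadjusted p under 0.05 was found for HCFC1R1 (0.53, SE 0.16, adjusted p 0.309), CLDN6 (0.66, SE 0.23, adjusted p 0.468) and TNFRSF12A (0.87, SE 0.37, adjusted p 0.675). Of all tested genes, 6.93% had such a p in this contrast and 71.8% had a positive estimate. Whether the position beside IL32 plays a part was not tested. CLDN6 is a tight junction protein of embryonic and tumour cells, and TNFRSF12A is the receptor for the cytokine TWEAK. IL18BP had 3 neighbours and 2 passed the filter, NUMA1 and RNF121, with RNF121 at 0.09 (SE 0.30, adjusted p 0.999). The 2 neighbours of CASP1, CASP5 and CARD16, did not pass.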

How the data were processed

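RNA from 9 Huh7 libraries, 3 per group, was poly(A)-selected and sequenced with strand kept, per the labels' protocols. The authors deposited FPKM per gene. Per the submitters' processing notes the tools were HISAT, featureCounts and DESeq2, with no versions or roles. Build and counting settings are not given in the sources used here. Coordinates are those of the deposited table, and promoter windows are those of RefSeq on GRCh38.p14.

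All 9 value columns were used. Depth was recovered from 1543 single-exon genes, whose 800 to 929 low values per library were all whole fragments within 0.1, and fragments per gene followed from depth and a fitted length. The 11245 genes that reached 1 FPKM in 3 or more libraries entered limma 3.58.1 (R 4.3.3) on log2(FPKM + 1) with a trend and group as the only term. That scale understates changes of low genes. Calls were made at an adjusted p under 0.05 (two-sided, Benjamini-Hochberg). Means, ratios, likeness and figures used Python 3.11.15, numpy 2.4.6, pandas 2.3.3 and matplotlib 3.10.9.

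The genes, lists and tests were chosen with earlier results of these data known. Named genes are the 4 described, ZMAT2, the 5 most alike genes each for IL18 and IL32, neighbours within 50 kb, and in each list the called genes and up to 3 further tested ones with the smallest adjusted p. Genes known for their part in this pathway that were low are named by value, as are IL37, IL1A, IL1RN, IL9, TNF, IL6, NLRC4, IRF8, KRT19, SOX9, LUM and ITGAM, which were chosen after their values were seen. The fit was tested on simulated data. Alternatives were another pseudocount, other filters, 4 other scalings, TPM among them, a mitochondrial covariate, a replicate block, leaving out each library, no trend, and only the groups compared. Scaling on nuclear genes without control replicate 2 was chosen after seeing the data. Replicate numbers are shared by the labels, which name no common batch. Deviations of same-numbered libraries of shzmat2-1 and control correlated at 0.61, 0.78 and 0.69, and replicate 2 has the highest mitochondrial share in both. Deviations from the mean of 3 libraries depend on each other, so these values do not establish a pairing. Between shzmat2-2 and either other group the correlations differed in sign.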

Additional observations from a re-analysis of the deposited data

How the results depend on the processing

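With each library left out in turn, the difference in the mean of both arms ran over 1.28 to 1.52 for IL18, 0.92 to 1.22 for IL32 and -0.13 to -0.01 for IL18BP (log2). IL18 moved to 1.59 with a pseudocount of 0.1 and 1.63 with TPM. The differences of shzmat2-2 and shzmat2-1, all within their intervals, changed sign in several settings. For IL18 they were 0.070 on nuclear scaling, with or without control replicate 2, 0.047 with median-of-ratios scaling, 0.099 with quantile normalization and 0.059 with the mitochondrial covariate, and with each library left out -0.10 to -0.02. For IL32 the same settings gave 0.12, 0.095 with median-of-ratios scaling, 0.17 with quantile normalization and 0.17 with the covariate, and -0.17 to 0.095 with each library left out. IL18BP was -0.026 with TPM. The count of list genes called in the mean of both arms was 2 with nuclear, median-of-ratios or quantile scaling, 0 with TPM, 7 with the mitochondrial covariate, 3 on nuclear scaling without control replicate 2, and 0 to 2 with each library left out. For shzmat2-1 it was 1 with nuclear, median-of-ratios or quantile scaling and on nuclear scaling without control replicate 2, 2 with the covariate, and 0 to 1 with each library left out. For shzmat2-2 it was 1 with a pseudocount of 0.1 or without the trend, 0 with no filter, a filter of 5 FPKM, TPM or only the groups compared, 10 with the covariate, and 0 to 3 with each library left out. With the covariate, 3.73% of all tested genes were called in shzmat2-1, 9.84% in shzmat2-2 and 9.75% in the mean of both arms. On nuclear scaling these shares were 0.632%, 1.77% and 1.75%, and there without control replicate 2 they were 0.552%, 3.26% and 2.23%. Median-of-ratios scaling gave 0.685%, 1.73% and 1.81%, and quantile normalization 0.703%, 1.73% and 1.86%. For shzmat2-2 the share was 0.542% with a pseudocount of 0.1 and 0.507% without the trend. It was 0.27% with no filter, 0.228% with a filter of 5 FPKM and 0% with TPM or only the groups compared. Deviations of same-numbered libraries correlated at 0.61 to 0.78 between shzmat2-1 and control. They did so at -0.76 to 0.61 between shzmat2-2 and control and -0.63 to 0.63 between the arms. By the labels, same-numbered libraries share only a number. With the replicate block the list counts were 1 for shzmat2-1 and 1 for shzmat2-2, where 0.116% and 0.462% of all tested genes were called. With each library left out, the shares called ran over 0% to 0.293% in shzmat2-1 and 0% to 2.4% in shzmat2-2. In the mean of both arms they ran over 0.0534% to 1.33%. Over all tested genes, the number called in the mean of both arms was 61, and it ran from 1 with TPM to 1096 with the mitochondrial covariate. It was 196 on nuclear scaling, 203 with median-of-ratios scaling, 209 with quantile normalization, 25 with a filter of 5 FPKM, 250 on nuclear scaling without control replicate 2, and 6 to 150 with each library left out, 6 without control replicate 3 and 150 without control replicate 2. The median of all tested genes was 0.01 on nuclear scaling, 0.20 with TPM, -0.01 with median-of-ratios or quantile scaling and -0.11 without control replicate 2, beside 0.10. The causes of these shifts were not tested. Depth limits CASP1, at 1 to 12 fragments per library.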
